A study of Mus musculus with 6 samples.

Results

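The genes described here encode the collagens, laminin chains and linking proteins of basement membranes, the thin sheets of matrix that lie beneath endothelial and epithelial layers. They are 30 named genes, and every probe set annotated with a single symbol from this list was taken, which gave 63 probe sets of the 45037 tested and 30 of the 18193 genes represented. The arrays compare lymphatic endothelial cells (LECs) captured in the normal mammary skin of balb-c/nude mice (3 samples) with LECs from MDA-MB-435 xenografts (3 samples). The tumours had been injected subcutaneously and were removed 8 weeks later. MDA-MB-435 is an established human cancer line, so only the host's vessels and stroma carry mouse genes. Whether human RNA in the tumour samples also bound to the mouse probe sets was not tested. The labels give no mouse strain for the tumour samples and no age or sex for either group. In both groups LECs were found on sections by a brief LYVE-1 stain, cut out by laser capture microdissection, and their RNA was amplified in 1 round before hybridisation. The samples are called biological replicates without a statement that each came from its own animal, so p-values measure the spread between these samples. Nude mice lack a thymus and have few mature T cells.

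In a basement membrane, laminin trimers of an alpha, a beta and a gamma chain and trimers of collagen IV chains form separate networks. Nidogens and the heparan sulphate proteoglycans perlecan and agrin bridge these networks, and cells hold on to them through integrins and dystroglycan. Blood capillaries have a continuous basement membrane, whereas initial lymphatic vessels are known for a thin and interrupted sheet. Endothelial cells, pericytes, fibroblasts and keratinocytes can all make parts of it.

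All values are the deposited signals on the log2 scale, so that a difference of 1 means a doubling. As the background of an array, the value that 95% of 27 probe sets for bacterial transcripts stayed below was used, and it lay between 2.96 and 3.91. Of the 63 probe sets, 46 were above background on at least 3 arrays, 31 on all 6 arrays and 7 on none. A gene is represented below by its brightest probe set on average, and 26 of the 30 genes were above background on at least 3 arrays with it. Signals of different probe sets are not on a common scale, so each is compared only with itself across arrays. The number of arrays limits the precision.

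The LEC label was checked against marker genes. Flt4, the receptor for VEGF-C, had 7.30, 7.57 and 8.50 in healthy-skin replicates 1 to 3 and 9.49, 9.63 and 9.57 in tumour replicates 1 to 3. Lyve1, the gene of the protein stained for capture, had 3.21, below its array's background, in healthy-skin replicate 1, 7.58 and 6.81 in the other healthy-skin samples and 9.41 to 9.65 in the tumours. The other measured lymphatic markers Pdpn, Prox1, Mmrn1 and Reln had smaller differences of 1.04, 0.95, 0.49 and 0.02. Differences were positive for 6 of 6 measured lymphatic and 10 of 10 pan-endothelial markers, against 57.3% of all genes, and 2 and 5 of them had an unadjusted limma p under 0.05, against 3.22% of all genes. In captured tissue, fewer cells of a type and less RNA per cell cannot be told apart. Keratinocyte markers had negative differences in 11 of 12, with a summed linear signal of 5394 to 8287 in healthy skin and 350 to 3483 in tumours. That of fibroblast markers was 8899 to 23614 and 1350 to 15634, so markers of other cell types gave signal in both groups.

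Col4a1 and Col4a2 had the largest differences among the members, taking 1 probe set per gene. Collagen IV genes lie head to head in neighbouring pairs, Col4a1 with Col4a2, Col4a3 with Col4a4 and Col4a5 with Col4a6. In RefSeq's promoter windows (250 bases before to 50 after an annotated start, GRCm38.p6), those of Col4a1 and Col4a2 overlap by 78 bases at chr8:11312777-11312854, with starts 21 bases apart on opposite strands. The windows of Col4a5 and Col4a6 do not overlap, and their starts are 1343 bases apart. The GC box GGGCGG, searched on both strands, occurs in the shared stretch and in both other windows. The first of the lines below is the Col4a2 strand and the next line is the same 30 bases read on the Col4a1 strand. They are shown with 30 bases from the neighbouring pair on chromosome X and from the nidogen gene Nid1, because Col4a1 and Col4a2 had large differences while Col4a5 and Col4a6 stayed near background. The GC box is in capitals, as CCGCCC where it lies on the opposite strand.
Col4a2, chr8:11312800-11312829, plus strand: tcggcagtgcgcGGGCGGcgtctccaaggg
Col4a1, chr8:11312800-11312829, minus strand: cccttggagacgCCGCCCgcgcactgccga
Col4a5, chrX:141475377-141475406, plus strand: ccagcggggaggGGGCGGtgcagggaagag
Col4a6, chrX:141474080-141474109, minus strand: cagcaggcagccCCGCCCcgtccccctcca
Nid1, chr13:13437523-13437552, plus strand: gacaggcggggtGGGCGGgccctcccccat

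Of the 30 genes, 20 matched a RefSeq window by symbol, with 25 windows in all since some genes have more than 1. GGGCGG was found in 17 of the 25, against 35.7% of all 32851 windows of 300 bases. CCAAT, also searched on both strands, was found in 8 of 25, against 37.4%, and TATAAA in 0 of 25, against 13.6%. A match describes letters only, and the GC box is held both by the collagen IV pair with large differences and by the pair near background.

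Col4a1 and Col4a2, whose products join into the collagen IV trimer found in nearly every basement membrane, were higher in the tumour samples. The brighter Col4a1 probe set (1452035_at) had 6.79, 7.50 and 8.91 in healthy-skin replicates 1, 2 and 3 and 11.66, 10.95 and 9.77 in tumour replicates 1, 2 and 3. The groups did not overlap. The difference was 3.06 with a standard error of 0.68, an 8.34-fold higher geometric mean (limma adjusted p = 0.504 over all probe sets). The second Col4a1 probe set (1426348_at) had 3.58, 3.20 and 5.92 against 8.89, 7.33 and 5.73, a difference of 3.08 ± 0.99 (SE), and here the groups overlapped because tumour replicate 3 lay below healthy-skin replicate 3. Col4a2 (1424051_at) had 5.07, 6.61 and 5.63 in healthy skin and 9.90, 8.91 and 6.60 in tumours, a difference of 2.70 ± 0.86 (SE; limma adjusted p = 0.674). Tumour replicate 3 came out just below the highest healthy-skin sample, so that these groups overlapped too. On all 3 probe sets the tumour arrays stood in the same order, with replicate 1 highest and replicate 3 lowest. The difference of Col4a1 lay between 2.59 and 3.65 with any 1 array left out, and that of Col4a2 between 1.98 and 3.63.

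The other collagen IV chains gave little signal. Col4a3 and Col4a4, which with Col4a5 make up the trimer known from kidney glomeruli, had differences of 0.02 and 0.17. Col4a3 was below background on every array, at 2.26, 2.53 and 2.16 in healthy skin and 2.39, 2.34 and 2.27 in tumours. Col4a4 had 3.57, 3.47 and 3.23 against 3.53, 3.40 and 3.85, above background on 3 arrays. Col4a5 and Col4a6, which form the trimer known from epidermal and smooth muscle basement membranes, were also dim. Col4a5 had 3.85, 2.60 and 3.32 in healthy skin and 2.76, 4.92 and 4.06 in tumours, with a difference of 0.66 and a 95% interval of -0.78 to 2.10. Col4a6 had 4.22, 2.82 and 2.36 against 3.38, 3.27 and 3.56 (difference 0.27, interval -0.91 to 1.45). For probe sets this close to background a missing difference says little about the gene.

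**Figure D1:**
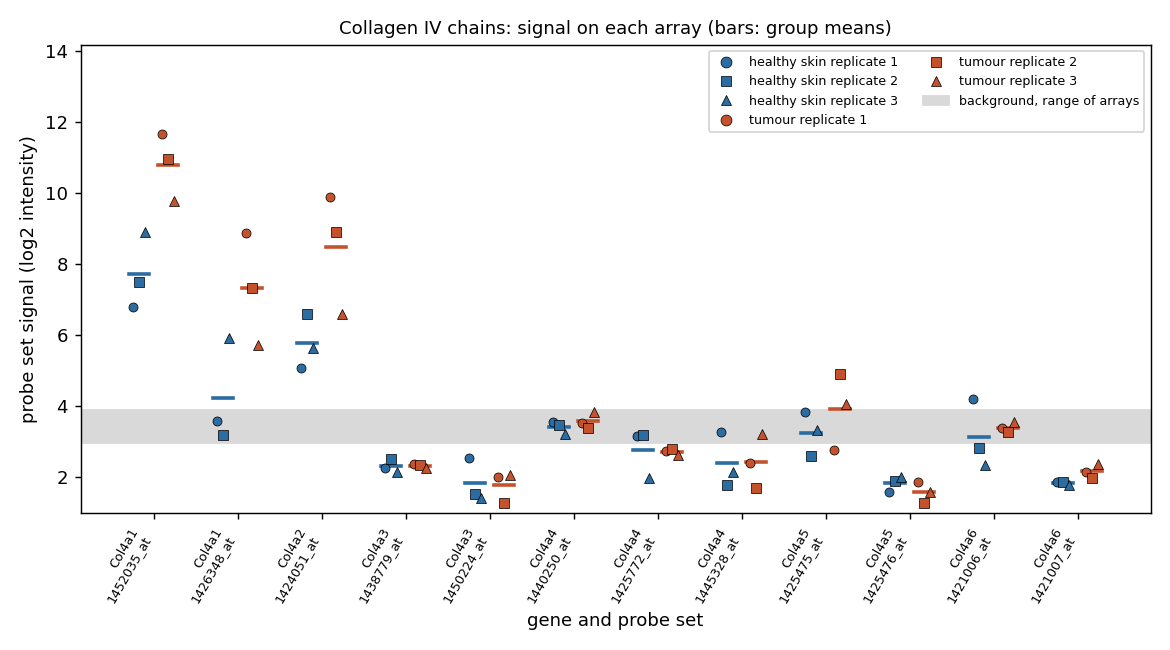
Signal (log2 intensity, vertical axis) of the 12 collagen IV probe sets on each of the 6 arrays, with group means as bars and the range of the arrays' backgrounds (2.96 to 3.91) in grey. The Col4a1 and Col4a2 probe sets lie mostly above the grey band with higher tumour means, and the other 9 lie in or below it on most arrays, with Col4a5 at 4.92 and 4.06 in tumour replicates 2 and 3.

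Among the laminin chains the gamma chain Lamc1, part of most laminin trimers, had the lowest p. Its brighter probe set (1423886_at) had 6.37, 5.41 and 6.40 in healthy-skin replicates 1, 2 and 3 and 8.32, 7.28 and 7.13 in the tumours, without overlap. The difference was 1.51 ± 0.45 (SE; limma adjusted p = 0.642), and it lay between 1.14 and 1.74 with any 1 array left out. Its other probe set (1423885_at) had 5.81, 7.23 and 5.41 against 8.04, 7.35 and 6.63, a difference of 1.19 ± 0.58 (SE). There healthy-skin replicate 2 was higher than tumour replicate 3. Lamc3, a gamma chain of more restricted expression, had 3.70, 3.64 and 2.99 against 3.75, 3.92 and 3.51, close to background (difference 0.28).

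Among the beta chains, the differences of Lamb1 and Lamb2 each rested on a single array. Lamb1, the beta chain usually paired with Lamc1, had 3.51, 7.20 and 6.80 in healthy skin and 6.22, 7.27 and 7.51 in tumours on its brightest probe set (1424114_s_at). The difference of 1.16 ± 0.98 (SE) was 0 without healthy-skin replicate 1. Its other 3 probe sets differed by 0.45, -0.04 and -0.52, and on these healthy-skin replicate 1 did not stand apart in that way, at 5.09, 5.18 and 4.24. Lamb2, the beta chain of arterial and neuromuscular basement membranes, had 5.62, 4.95 and 4.76 in healthy skin and 4.89, 8.81 and 5.81 in tumours. Its difference of 1.40 ± 0.96 (SE) was 0.24 without tumour replicate 2. Macrophage markers were also highest on that array (8 of 9 markers positive, summed linear signal 1026 to 1336 in healthy skin and 1063 to 6216 in tumours). Among the tumours, the means of fibroblast (8.63, against 8.07 and 5.58) and pericyte and smooth muscle markers (6.32, against 5.85 and 4.94) were highest there too. In healthy skin these means were 7.43 to 8.98 and 4.96 to 5.20. The part of these cell types in the result was not tested. Lamb3, the beta chain of the epidermal anchoring laminin, had 5.72, 5.03 and 5.04 against 5.97, 4.36 and 4.78 (difference -0.23).

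The alpha chains, which bind the cell surface receptors, showed small differences or large spread. Lama4, the alpha chain typical of endothelium, had 6.42, 4.79 and 6.61 in healthy skin and 6.11, 6.30 and 6.81 in tumours (1424807_at). The difference was 0.47 with an interval of -0.79 to 1.72, and without healthy-skin replicate 2 it was -0.11. On its second probe set (1424808_at) healthy-skin replicate 1 was highest at 8.45, the other healthy samples had 4.15 and 5.02, and the tumours lay between 5.79 and 6.23. Lama5, the alpha chain of mature endothelial and epithelial membranes, had 7.25, 6.18 and 5.77 against 6.65, 6.03 and 6.77 (difference 0.08, interval -0.99 to 1.15). Its dimmer probe sets differed by 0.35 and -0.59, so they disagreed in sign.

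Alpha chains of other tissues were measured too. Lama2, the alpha chain of muscle and nerve, had 5.52, 6.57 and 5.60 against 5.49, 5.29 and 5.60 (difference -0.44), and Lama1, the alpha chain of early embryonic membranes, had 4.72, 3.68 and 3.23 against 3.99, 4.70 and 3.91 (difference 0.32). Lama3, which pairs with Lamb3 beneath the epidermis, had 3.54, 3.42 and 3.26 in healthy skin and 6.66, 4.25 and 3.07 in tumours. Its difference of 1.26 was 0.26 without tumour replicate 1, and its other probe set differed by -0.08. That array also had the highest tumour values of the epidermal anchoring genes Col17a1 (6.69, against 4.95 and 2.27) and Col7a1 (6.83, against 5.58 and 3.62), and of the keratinocyte marker mean (6.33, against at most 5.90). In healthy skin, where Lama3 was close to background, the keratinocyte marker mean was higher, at 7.32 to 8.01. Col17a1 had 4.62 to 6.98 and Col7a1 5.41 to 6.60 there. The part of keratinocytes in these values was not tested.

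The linkers did not share a direction. Nid1, which binds the laminin gamma chain to collagen IV, had 3.46, 8.08 and 5.04 in healthy skin and 7.75, 7.83 and 7.34 in tumours (1416808_at). The tumour values lay close together while the healthy-skin values were widely spread, and healthy-skin replicate 2 exceeded every tumour sample. The difference of 2.11 ± 1.07 (SE; limma adjusted p = 0.843) was 1.08 without healthy-skin replicate 1 and 3.39 without healthy-skin replicate 2. A second probe set (1448469_at) had 6.29, 7.11 and 4.62 against 7.88, 6.75 and 6.56 and differed by 1.05. Nid2, a relative of Nid1, had 3.72, 5.73 and 3.40 against 6.40, 4.68 and 4.87, a difference of 1.03 ± 0.74 (SE) that was 0.49 without tumour replicate 1 and 1.75 without healthy-skin replicate 2.

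Of the heparan sulphate proteoglycans, perlecan was somewhat higher and agrin lower in the tumour samples. Hspg2, the perlecan gene, had 6.42, 6.81 and 6.28 in healthy skin and 7.29, 6.79 and 7.60 in tumours on its brighter probe set (1418670_s_at). The difference was 0.72 ± 0.32 (SE; limma adjusted p = 0.804), and tumour replicate 2 lay just below healthy-skin replicate 2. Its other probe set had 7.40, 4.66 and 3.74 against 7.66, 5.56 and 6.19 (difference 1.20 ± 1.00, SE). Agrn, which encodes agrin, the organiser of the neuromuscular junction that is also made by epithelium and endothelium, had 5.59, 6.94 and 7.15 in healthy skin and 4.15, 5.68 and 5.24 in tumours. It had a difference of -1.54 ± 0.57 (SE; limma adjusted p = 0.728). Tumour replicate 2 was slightly higher than healthy-skin replicate 1, and its dimmer probe set differed by -0.48. Agrin was the only member with a negative difference at an unadjusted p under 0.05. The mean of keratinocyte markers was at most 6.33 on the tumour arrays and 7.32 to 8.01 in healthy skin. Among the tumours, the brighter Agrn probe set was lowest in replicate 1 (4.15), where the keratinocyte mean was highest (6.33, against at most 5.9). In healthy skin both rose from replicate 1 to replicate 3. Whether keratinocytes had a part in the agrin values was not tested.

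**Figure D2:**
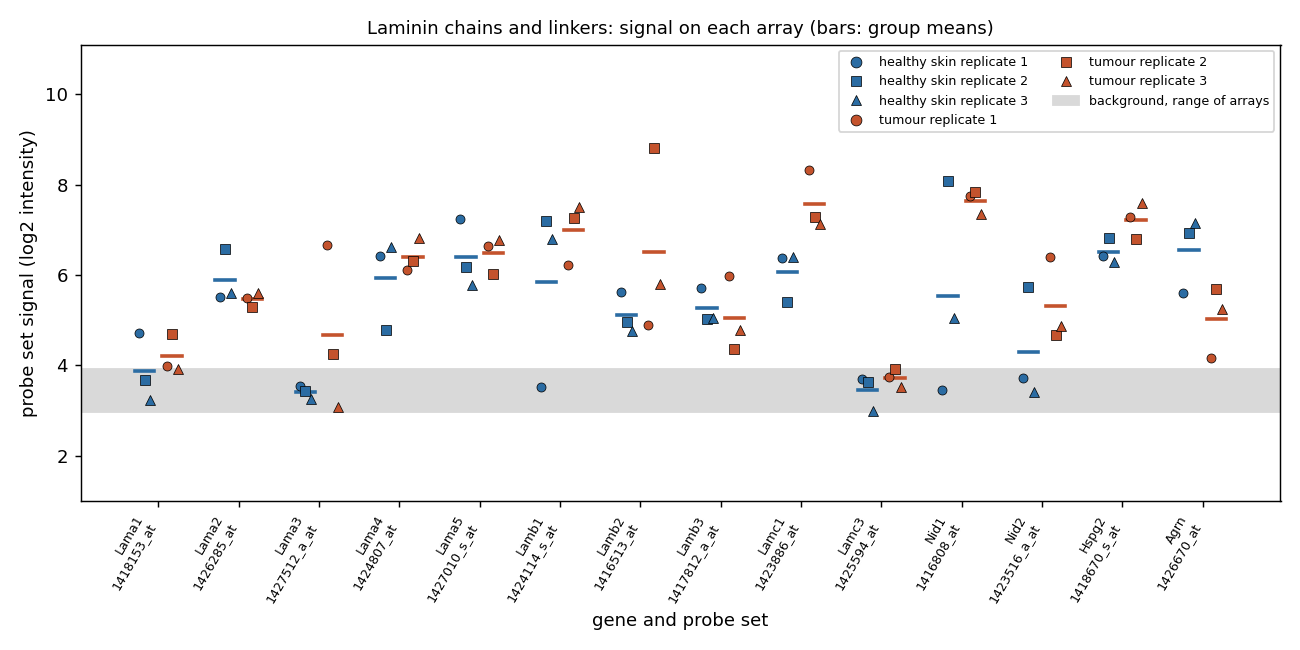
Signal (log2 intensity, vertical axis) of the chosen probe set of each laminin chain and linker on the 6 arrays, with group means as bars and the range of backgrounds in grey. Lamc1 has 3 tumour values above all healthy-skin values, whereas Lamb1, Lamb2 and Lama3 each have 1 array far from the rest of its group.

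Fibronectin, Fn1, a matrix glycoprotein that integrins assemble into fibrils and that lies next to rather than within most basement membranes, was higher in tumours on both probe sets. The brighter (1426642_at) had 7.86, 6.74 and 5.62 in healthy skin and 9.04, 8.60 and 8.47 in tumours, a difference of 1.96 ± 0.57 (SE; limma adjusted p = 0.630). The dimmer (1437218_at) had 3.32, 2.20 and 3.81 against 6.32, 5.31 and 4.58, a difference of 2.30 ± 0.58 (SE; limma adjusted p = 0.558). The groups did not overlap on either. With any 1 array left out, the brighter probe set differed by 1.40 to 2.52. Fibronectin was the only member with more than 1 probe set on which no probe set overlapped between the groups.

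Col8a1, a short-chain collagen made by vascular endothelium and smooth muscle, had 5.12, 4.27 and 4.94 in healthy skin and 6.44, 5.35 and 6.93 in tumours, without overlap. The difference was 1.46 ± 0.48 (SE; limma adjusted p = 0.688). A second probe set (1455627_at) had 1.71, 5.29 and 2.30 against 3.86, 4.41 and 5.31, which gave a like difference of 1.42 with much larger spread. Its partner chain Col8a2 was near background (difference 0.18).

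The multiplexins are collagens whose ends release antiangiogenic fragments. Col18a1, the source of endostatin, had 5.97, 5.85 and 4.60 in healthy skin and 6.45, 6.41 and 4.66 in tumours (difference 0.37, interval -1.09 to 1.82). The difference was -0.07 without healthy-skin replicate 3 and 0.95 without tumour replicate 3. The second Col18a1 probe set (1426955_at) differed by 0.62. Col15a1, which sits where the basement membrane meets interstitial collagen, had 6.59, 8.00 and 6.39 against 6.26, 6.78 and 4.39 (difference -1.19, interval -2.89 to 0.52). Without tumour replicate 3 the Col15a1 difference was -0.48. Tumour replicate 3 was lowest for both genes among the tumours, and the fibroblast markers were lowest there too, at -2.61 from the healthy-skin mean on the log2 scale against -0.13 in replicate 1 and 0.43 in replicate 2. Keratinocyte markers (-3.62) and pericyte and smooth muscle markers (-0.10) were also lowest on that array among the tumours. In healthy skin Col18a1 was lowest in replicate 3, where the fibroblast marker mean was 8.19, against 7.43 and 8.98 in replicates 1 and 2. Of the fibroblast markers 2 of 10 had positive differences, and their summed linear signal was 8899 to 23614 in healthy skin and 1350 to 15634 in tumours. The part of fibroblasts or of the other cell types was not tested.

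Sparc, a collagen-binding matricellular protein, was also lowest in tumour replicate 3. Its brightest probe set (1448392_at) had 10.20, 11.67 and 9.82 in healthy skin and 11.31, 11.08 and 8.62 in tumours, a difference of -0.23 that became 0.63 without tumour replicate 3. Its other probe sets differed by 0.31 and 0.20, so the probe sets disagreed in sign. Its relatives Smoc1 and Smoc2 were near background with differences of 0.23 and 0.11. Dag1, which encodes the laminin receptor dystroglycan, varied little on its brightest probe set, an _x_at set that may also match other transcripts (6.17 to 6.43 in healthy skin and 6.33 to 6.47 in tumours, difference 0.08, interval -0.51 to 0.68). The other Dag1 probe sets differed by -0.13, 0.21 and -0.4. Npnt, a ligand of integrins in hair follicle and kidney membranes, differed by 0.46 on its brightest probe set, by -0.67, 0.52, -0.88 and 0.49 on the others and by -0.01 on their mean, so it had no settled direction. A dim Npnt probe set (1452106_at) read 9.22 in healthy-skin replicate 3 and 5.85 in tumour replicate 1 and between 1.66 and 2.20 elsewhere.

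Across the 30 genes, 25 had positive differences and 5 negative, with a median of 0.34 against 0.08 over all 18193 genes, of which 57.3% were positive. No member passed the adjusted threshold of 0.05 in limma, which 0.00444% of all probe sets did, and the lowest adjusted p of a member was 0.504. At an unadjusted limma p under 0.05, 5 genes were higher (Col4a1, Col4a2, Lamc1, Fn1 and Col8a1), which is 16.7% of the members against 3.22% of all genes, and 1 was lower (Agrn), 3.33% against 4.28%. Over probe sets it was 7 of 63 higher, against 2.83% of all, and 1 lower, against 3.53%. The 3 tumour values lay above all healthy-skin values for 4 of 30 genes, or 13.3%, against 6.58% of genes, and below them for 0 of 30, against 5.36%. The share of higher members was thus above that of all genes at this lenient threshold, while that of lower members was close to it. These shares describe a list chosen with earlier results of these data known, and they are no test of it. The comparison is also uneven in signal. Above background on at least 3 arrays were 26 of the 30 members, against 11624 of all 18193 genes.

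**Figure D3:**
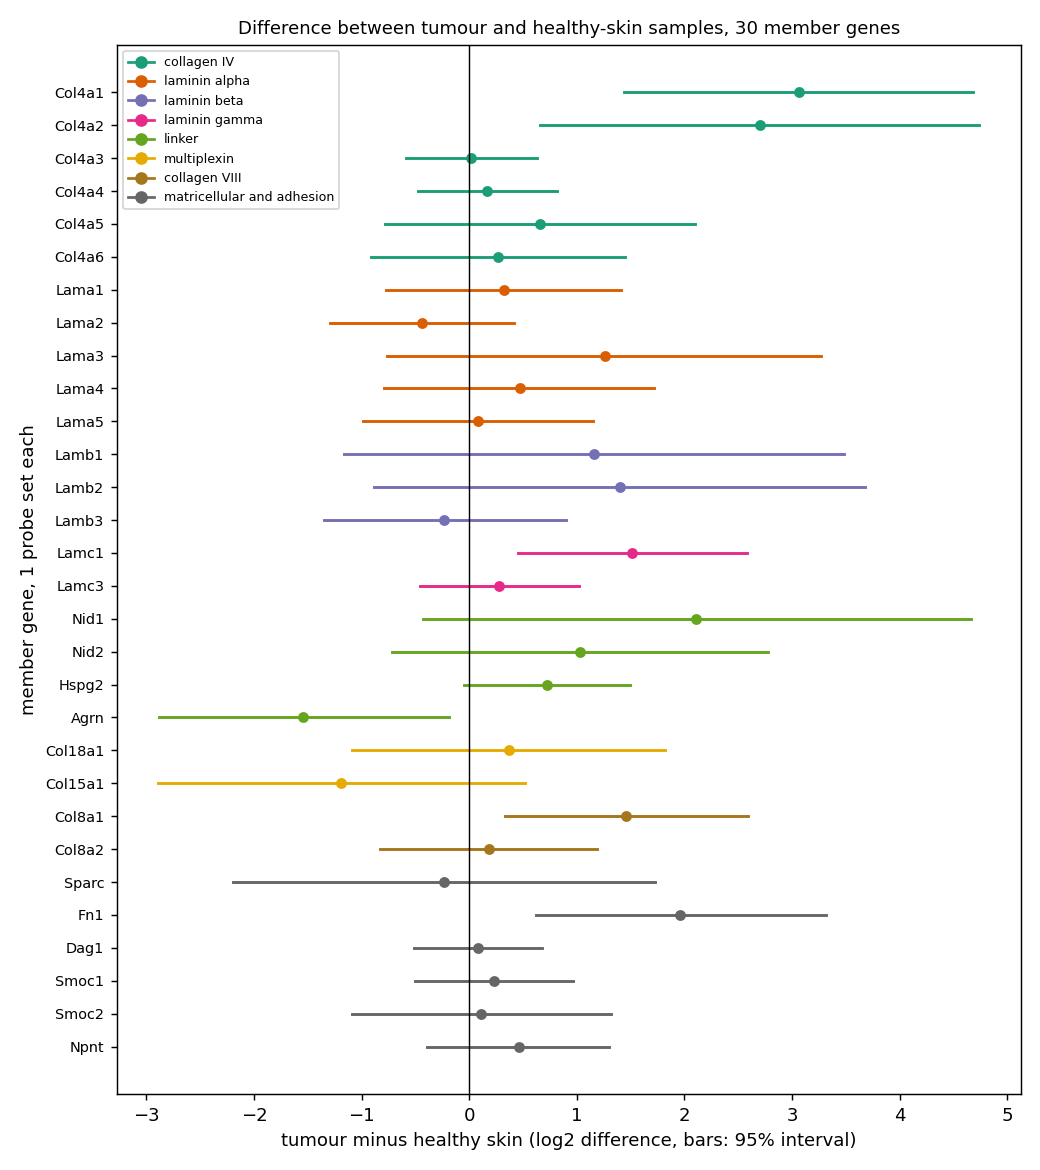
Tumour minus healthy-skin difference (log2, horizontal axis) of each of the 30 genes on its chosen probe set, with 95% intervals from limma, coloured by role. The intervals of Col4a1, Col4a2, Lamc1, Fn1 and Col8a1 lie above 0, that of Agrn lies below 0, and the other 24 include 0.

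By role, the median difference was 0.46 for the 6 collagen IV genes, 0.39 for the 10 laminin genes, 0.87 for the 4 linkers, 0.82 for the 2 collagen VIII genes, 0.17 for the 6 matricellular and adhesion genes and -0.41 for the 2 multiplexins. Of the 6 collagen IV genes, 4 were near background. Of the 21 genes with more than 1 probe set, 9 had probe sets that disagreed in sign. All probe sets were positive for Col4a1, Col4a6, Lama4, Lamc1, Lamc3, Nid1, Hspg2, Fn1, Col8a1, Col18a1 and Smoc2, and all were negative for Agrn. Leaving out healthy-skin replicate 1 raised the median over the members from 0.34 to 0.65, and leaving out healthy-skin replicate 3 lowered it to 0.16.

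The tumour arrays differed among themselves in how far the members stood from the healthy-skin mean. Averaged over the 30 genes they lay 0.80, 0.72 and 0.33 above it in replicates 1, 2 and 3. For collagen IV this was 1.33, 1.36 and 0.75, and for the linkers 0.68, 0.53 and 0.54. These averages join unlike members. Col4a1 stood at 3.93, 3.22 and 2.04 and Col4a2 at 4.12, 3.14 and 0.83, but the dim Col4a5 at -0.49, 1.67 and 0.8. Among the linkers, Nid1 stood at 2.22, 2.31 and 1.82 and Agrn at -2.41, -0.88 and -1.32. Pericyte and smooth muscle markers stood at 0.81, 1.28 and -0.10 on the same arrays, with 9 of 11 markers positive and a summed linear signal of 649 to 966 in healthy skin and 418 to 1863 in tumours. None of these markers was below background on every array. Pan-endothelial markers were even, at 1.34, 1.11 and 1.33, with summed signals of 346 to 437 in healthy skin and 925 to 1013 in tumours. In tumour replicate 3, Col4a1 was 2.04 above the healthy-skin mean, Lamc1 1.07, Nid1 1.82, Fn1 1.73, Col8a1 2.15 and Col4a2 0.83. Except for Col8a1, each of these had its lowest tumour value there. Other members stood below the healthy-skin mean on that array, among them Col15a1 (-2.6), Sparc (-1.94), Agrn (-1.32) and Col18a1 (-0.81). The pericyte markers went both ways on that array, and Cnn1 had 5.12 against a healthy-skin mean of 3.30, Cspg4 5.06 against 3.91 Notch3 4.51 against 3.21, Pdgfrb 5.11 against 7.46 and Rgs5 5.82 against 7.60. The part of pericytes, of blood vessel endothelium or of the number of endothelial cells in these differences was not tested.

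**Figure D4:**
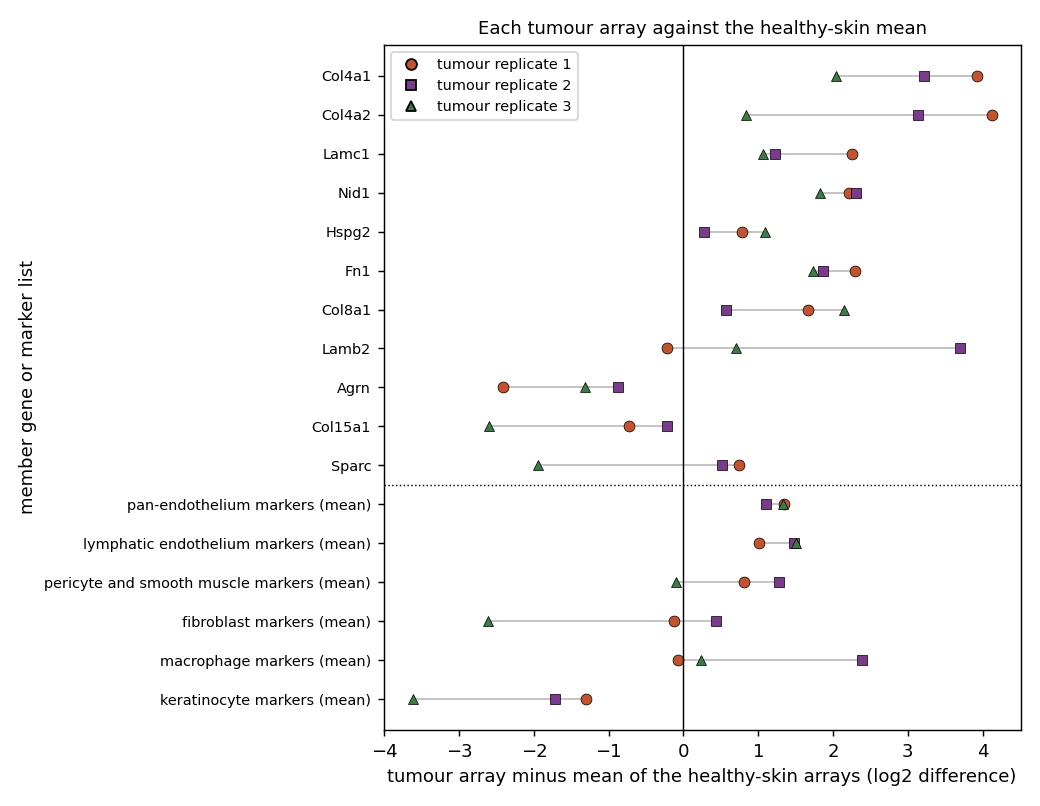
Each tumour array's value minus the mean of the healthy-skin arrays (log2 difference, horizontal axis) for 11 members and for the mean of 6 cell type marker lists, with a symbol per tumour replicate. Col4a1, Col4a2, Lamc1, Nid1, Hspg2, Fn1 and Col8a1 are above 0 on all 3 arrays. Replicate 3 is lowest for Col4a1, Col4a2, Lamc1, Nid1 and Fn1. It is also lowest for Col15a1, Sparc and the fibroblast, keratinocyte, and pericyte and smooth muscle markers.

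Genes that fold, cross-link, bind or cut basement membrane proteins were listed beside the members, and none passed the adjusted threshold in limma. Of 20 measured genes for collagen IV folding and cross-linking, 4 were higher and 1 lower at an unadjusted p under 0.05 (median 0.47), against 3.22% and 4.28% of all genes. Plod1, a lysyl hydroxylase, had 5.74, 5.26 and 4.54 in healthy skin against 8.29, 6.95 and 6.75 in tumours, a difference of 2.15 ± 0.52 (SE). Loxl3, a lysyl oxidase relative, differed by 1.53 and P3h3, of the prolyl 3-hydroxylase family, by -1.52. The collagen chaperone Serpinh1 differed by 0.21, with values from 6.23 to 9.61 in healthy skin.

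Of the 15 receptors, 2 were higher and 2 lower at an unadjusted p under 0.05 (median 0.25), against the same 3.22% and 4.28%. Itga9, an integrin subunit of lymphatic valves, had 5.15, 5.52 and 5.17 in healthy skin against 7.23, 6.72 and 7.44 in tumours, a difference of 1.85 ± 0.31 (SE). Ddr2, a receptor for fibrillar collagen, had a difference of -1.81, and Itgb3, the partner of the alpha V subunit in vitronectin and fibronectin binding, one of 1.42. The main laminin-binding subunits Itga6 and Itgb1 differed by 0.97 and 0.25 with overlapping groups.

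All 16 measured proteases and inhibitors had positive differences, with a median of 1.04, against 57.3% of all genes, and 4 were higher at an unadjusted p under 0.05, against 3.22%. Their mean was highest in tumour replicate 2 (7.47, against 6.74 and 5.78 in replicates 1 and 3), as was that of macrophage markers (8.12, against 5.66 and 5.97), of which 8 of 9 had positive differences. Among the tumours, fibroblast markers (8.63, against 8.07 and 5.58) and pericyte and smooth muscle markers (6.32, against 5.85 and 4.94) were highest there too. Of these, 2 of 10 and 9 of 11 had positive differences. The part of these cell types was not tested. The lowest p belonged to Ctsb (2.80), Plat (1.88) and Plau (3.80), and the collagen IV-cutting gelatinases Mmp2 and Mmp9 differed by 0.77 and 0.80 with overlap. Among 19 other basement membrane genes, 3 were higher and 0 lower at this threshold (median 0.18), against 3.22% and 4.28% of all genes. These were the TGF-beta binding protein Ltbp4 (2.04), fibulin Fbln2 (1.45) and Vwa1 (1.13), a partner of perlecan.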

How the data were processed

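Gene expression was measured on 6 mouse arrays, 3 of LECs from healthy skin and 3 of tumour-associated LECs. The authors deposited an intensity per probe set on a linear scale, and per the submitters' processing notes RMA was used, a method that corrects background, quantile-normalizes and summarises probes. Its software and version stand as not given in the sources used here. Such scaling removes overall differences in RNA amount, and amplification of little RNA adds spread.

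The 64 control probe sets of 45101 were removed, and log2 was taken with nothing added. Genes came from the platform annotation. The comparison used lmFit and eBayes of limma 3.58.1 (R 4.3.3), two-sided, and p-values were adjusted after Benjamini and Hochberg over 45037 probe sets, with 0.05 as threshold. In simulated data limma called 0 of 50 planted differences of 1, 11 of 50 of 2, 33 of 50 of 4 and 45 of 50 of 8 (log2), and 4 unchanged probe sets. Members and lists were chosen with earlier results of these data known. All members were named. Values per array were printed for collagen IV, detected laminins and linkers, and other members with the lowest p. Up to 3 genes per accompanying list were named by lowest p, with Serpinh1, Itga6, Itgb1, Mmp2, Mmp9, Col7a1 and Col17a1 added after their values were seen. Alternatives were a filter on dim probe sets, other scaling, an added constant, a replicate block, other eBayes options, other probe set choices and each array left out.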

Additional observations from a re-analysis of the deposited data

How the results depend on the processing

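No member probe set passed the adjusted threshold under any alternative run. The number of member probe sets at an unadjusted limma p under 0.05 was 8 of 63 and lay between 6 and 11. Over all probe sets limma called 2. This became 21 when only the 22179 probe sets above background on at least 3 arrays were tested, 0 after centring on array medians, 0 with 16 added before log2, 1 with trend and robust options, and 0 to 23 with 1 array left out, the 23 without tumour replicate 2. With the replicate block it was 0, and 10 member probe sets had an unadjusted p under 0.05. Same-numbered samples deviated together with correlations of 0.0439, 0.101 and -0.0127, so the numbers were not taken as pairs. The median of 0.34 over the 30 genes was 0.16 to 0.65 with 1 array left out and 0.22 to 0.46 under the other settings. Of the 386 values of single members under an alternative, 30 had another sign than the main value, in 13 genes. Causes were not tested. Signal near background limits Col4a3, Col4a4, Col4a5, Col4a6, Lamc3, Col8a2, Smoc1 and Smoc2.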
